A study of Homo sapiens with 9 samples.

Results

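Of 60649 genes in the count table, 26 were read in control MDA-MB-231 cells and were close to silent in cells carrying either hairpin against AHR. They were chosen by CPM, the reads of a gene for every 1000000 reads in its library. A gene had to average at least 1.5 CPM over the 3 control libraries and at most 0.5 CPM over the 3 libraries of each of the 2 hairpins. PDE1C and CCBE1 marked the set and had its highest control levels. Because the CPM values of these libraries chose the genes, the fall against the control is described here without a test.

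The cells, MDA-MB-231, are a widely used established line from a human breast cancer of the triple-negative class. The 9 libraries were 3 of cells with the control lentiviral vector pLKO-GFP, which the labels also write GFP-PLKO, 3 with shAHR#2 and 3 with shAHR#3, and all came from proliferating cells. In each group the cells were transduced, selected with puromycin and used as a pool of survivors, and no library of untransduced cells was used here. The numbers of the hairpins are those of the labels, which differ from the paper's numbering. No source says that replicates came from separate cultures, so every p-value below measures the spread between these libraries, which may be technical. In RNA from a pool, fewer cells expressing a gene and less RNA in each cell cannot be told apart.

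AHR encodes the aryl hydrocarbon receptor, a transcription factor held in the cytoplasm until a ligand such as a dioxin or a tryptophan metabolite binds it. It then enters the nucleus, pairs with ARNT and binds DNA at elements built around a short core, near genes such as CYP1A1 and CYP1B1. CCBE1 is a secreted protein that helps the protease ADAMTS3 to activate the lymphatic growth factor VEGF-C. PDE1C is a phosphodiesterase that degrades cyclic AMP and cyclic GMP when calcium-bound calmodulin activates it.

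Library totals were 17407688, 19509030 and 19370185 reads with pLKO-GFP, from 15991396 to 19112459 with shAHR#2 and from 19436825 to 20374460 with shAHR#3. AHR itself averaged 120 ± 3.63 CPM in control cells, 40.6 ± 1.09 CPM in shAHR#2 cells and 47.7 ± 3.87 CPM in shAHR#3 cells (SD, n = 3). The log2 fold changes of AHR were -1.50 (SE 0.05, adjusted p = 1.05e-25) and -1.31 (SE 0.05, adjusted p = 4.95e-24) in edgeR's quasi-likelihood test, fitted to the 14274 genes that passed a filter on low counts. All 7 markers of mesenchymal-like breast cancer lines were above 0.5 CPM in every group. They summed to 5976 to 6090 CPM in control libraries, 8632 to 8848 under shAHR#2 and 7471 to 7493 under shAHR#3. In the same order of groups, EGFR was at 486, 183 and 330 CPM and FN1 at 831, 2339 and 1709 CPM. Luminal markers, of which 6 of 7 were above 0.5 CPM in every group, summed to 699 to 743 CPM in control libraries, 748 to 773 under shAHR#2 and 869 to 929 under shAHR#3, with CDH1 at 0.928, 1.75 and 4.17 CPM and ESR1 at most at 0.153.

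Markers of other cell types also moved with the groups. Of 8 fibroblast markers, a list that includes COL1A2, 4, 2 and 4 were above 0.5 CPM, and their sum was 16.6 to 19.7 CPM in control libraries, 14.1 to 15.5 CPM under shAHR#2 and 30.0 to 33.8 CPM under shAHR#3. PDGFRB made up much of it at 8.38, 4.50 and 18.3 CPM, LUM was at 0.416, 0.224 and 1.13 CPM, THY1 at 1.04, 0.035 and 0.890 CPM, and DCN and COL3A1 were near 0. Of 6 endothelial markers 2, 2 and 1 were above 0.5 CPM, summing to 6.66 to 7.12, 10.7 to 12.9 and 12.1 to 14.1 CPM, with PECAM1 at 2.45, 10.9 and 12.2 CPM and CLDN5 at 0. Of 6 leukocyte markers 2, 3 and 3 were above 0.5 CPM, summing to 1.23 to 1.49, 4.26 to 5.96 and 3.44 to 3.83 CPM, with PTPRC at 0.122, 1.34 and 1.00 CPM, LYZ at 0.548, 2.91 and 1.74 CPM and CD3E at 0. The part of these markers in the results was not tested.

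The sequence before a gene's start is shown for the 2 leading genes, because AHR binds DNA through the core GCGTG. RefSeq promoter windows (GRCh38.p14), from 250 bases before to 50 bases after the start and written 5′ to 3′ on the gene's strand, were found for 18 of the 26 genes. The window of PDE1C (chr7:32299279-32299578, minus strand) lies at a start inside the span that GENCODE gives the gene. It holds 1 core, in capitals. The window of CCBE1 (chr18:59697374-59697673, minus strand) holds none on either strand.
PDE1C: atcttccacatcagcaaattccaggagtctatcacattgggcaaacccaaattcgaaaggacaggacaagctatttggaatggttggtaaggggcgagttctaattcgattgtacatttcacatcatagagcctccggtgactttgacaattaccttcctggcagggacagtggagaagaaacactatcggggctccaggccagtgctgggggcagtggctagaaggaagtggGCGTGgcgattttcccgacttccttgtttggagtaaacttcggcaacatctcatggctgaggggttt
CCBE1: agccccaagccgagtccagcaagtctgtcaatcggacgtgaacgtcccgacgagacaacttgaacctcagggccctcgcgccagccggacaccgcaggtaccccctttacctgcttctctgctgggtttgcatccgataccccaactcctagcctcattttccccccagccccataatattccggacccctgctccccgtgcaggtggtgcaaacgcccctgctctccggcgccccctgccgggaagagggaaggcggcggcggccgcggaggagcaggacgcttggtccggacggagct

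The core was present on either strand in 8 of the 18 windows. Like the window of PDE1C, those of RNF144A and KLC3 lie well inside the spans of their genes. So does that of NCAM2, which has no core. The stretches that follow show the core in capitals with up to 10 bases on each side, on the gene's strand. The first core is given where a window held several. The capitals read CACGC where the core was on the other strand.
PDE1C: aaggaagtggGCGTGgcgattttcc
RNF144A: tcaaacaaacCACGCatgtgaaaac
HIF1A-AS3: acgtactgagGCGTGgcctgccgcg
NKX2-1: cttgggggagGCGTGttagcggggg
MYO7B: gctgagggagGCGTGtgggagtgga
KLF15: caggcaGCGTGttggggggcg
POU3F2: gggcccaggcGCGTGccgctgcgag
KLC3: taccagttccGCGTGcgaagttctg

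**Figure D1:**
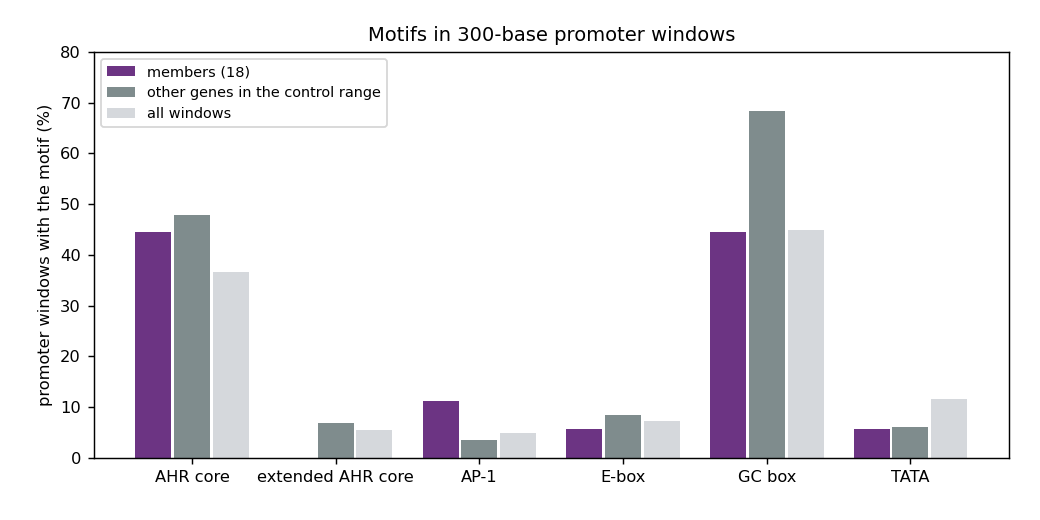
Share of 300-base promoter windows (y axis, percent) that hold each of 6 motifs on either strand, for 18 of the 26 genes, 2829 other genes in the same control range and all 35116 RefSeq windows. The AHR core was in 44.4% of the windows of the set, beside 47.8% and 36.5% of the others.

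A core in 44.4% of windows compared with 47.8% of 2829 other genes whose control mean lay in the same range (1.503 to 15.9 CPM) and with 36.5% of all 35116 windows. The extended core TNGCGTG was in 0 of the 18 windows, against 6.82% of the other genes and 5.51% of all windows. AP-1 letters (TGACTCA or TGAGTCA, both strands) were in 2 windows, 11.1%, against 3.46% and 4.95%. GC box letters (GGGCGG, both strands) were in 8 windows, 44.4%, against 68.3% and 45.0%. The E-box CACGTG was in 1 window, that of KLF15, which is 5.56% of the windows against 8.31% and 7.26%. The letters TATAAA were also in 1 window, that of GPR65, against 5.94% and 11.5%. A match describes letters and is not a binding site, and the lack of one says only that the letters are not in this window. The 2 windows with the AP-1 letters, in capitals, were those of a long non-coding RNA and of ANKRD22.
LINC01411: gcactaccctTGAGTCAtcctagcccc
ANKRD22: agagcaaataTGACTCAgaaaccggct

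No window of this kind was matched for PLCB4, PSG1, TP73-AS1, RADX, LGALS12, RP11-879F14.2, CST6 and COL1A2. The median GC content of the 18 windows was 62.5%, against 65% in the same range of control level and 58.7% over all windows. Their median number of CpG dinucleotides was 18.5, against 25 and 14.

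The 26 genes held 1620, 1838 and 1966 reads in the 3 control libraries. They held 57, 58 and 37 reads with shAHR#2 and 105, 120 and 101 with shAHR#3. Summed over the genes this was 96.3 ± 4.57 CPM in control cells, 2.97 ± 0.671 CPM under shAHR#2 and 5.50 ± 0.595 CPM under shAHR#3 (SD, n = 3). The lowest count of any of the genes in a control library was 20 reads and the highest in a hairpin library 11. The groups therefore did not overlap for any of the 26, as the way they were chosen all but fixes. Of all genes tested, 65.8% passed an adjusted p under 0.05 with shAHR#2 (33.2% lower) and 54.4% with shAHR#3 (27.5% lower), and both comparisons use the same control libraries. All 26 genes passed the filter on low counts, through the control group alone.

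**Figure D2:**
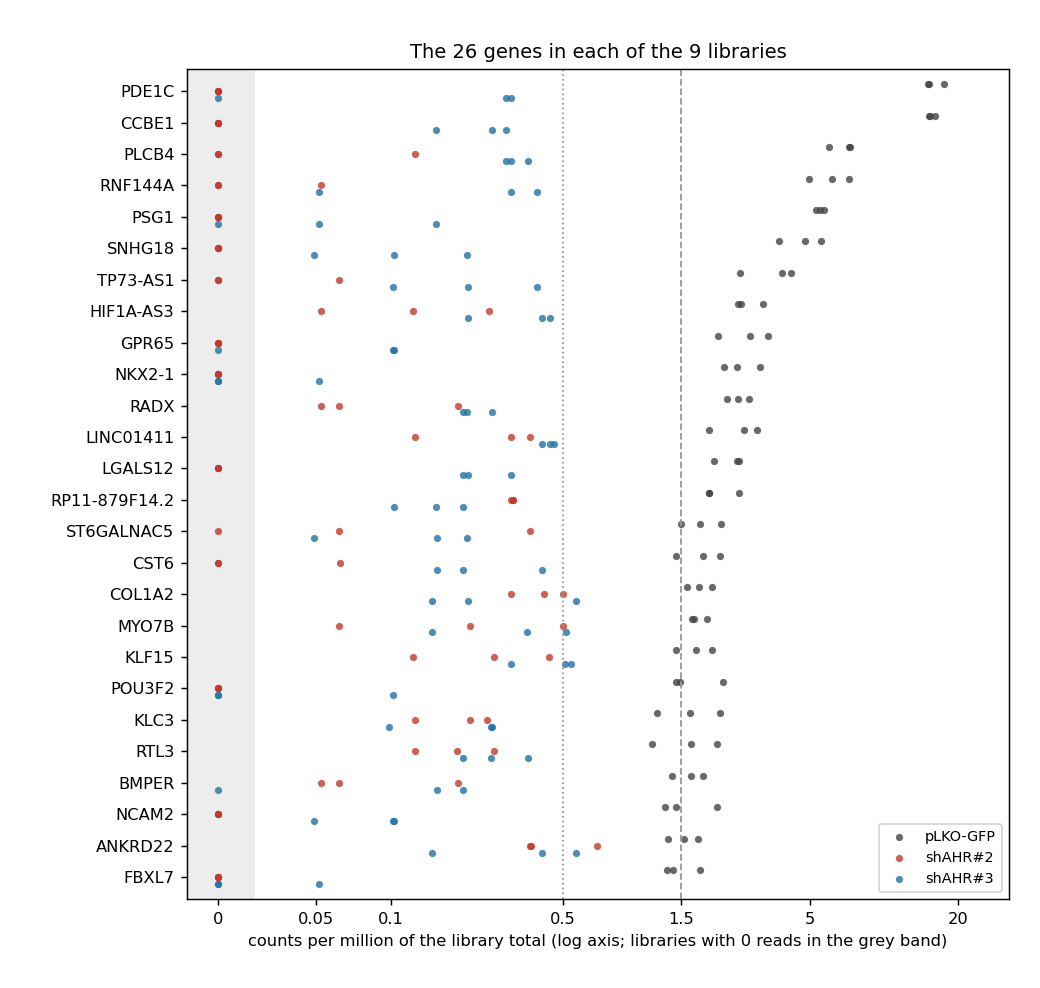
CPM of the 26 genes (rows, ordered by control mean) in each of the 9 libraries on a log axis, with a library of 0 reads drawn in the grey band. Each point is a library; the dotted and dashed lines are the limits of 0.5 and 1.5 CPM, which apply to group means, so that single libraries may lie past them.

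Fewer reads were left with shAHR#2 than with shAHR#3. With shAHR#2, 10 of the 26 genes had 0 reads in all 3 libraries (PDE1C, CCBE1, PSG1, SNHG18, GPR65, NKX2-1, LGALS12, POU3F2, NCAM2 and FBXL7). With shAHR#3 no gene had 0 reads in all 3. The median gene kept 0.879% of its control mean with shAHR#2 (range 0% to 30.7%) and 7.09% with shAHR#3 (range 0.647% to 26.3%). With a group at 0 reads set to 3 reads in each library, the floor used here for a count of 0, the median with shAHR#2 was 7.06%. The floor left shAHR#3 as it was, since no gene was at 0 in all its libraries. Groups with only 1 or 2 reads kept their smaller values. This median therefore cannot say whether the hairpins differ in the share left. At most 5% of the control level remained for 15 genes with shAHR#2 and for 10 with shAHR#3. Intervals and floors cover counting error only, since reads without molecular identifiers are not independent molecules.

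**Figure D3:**
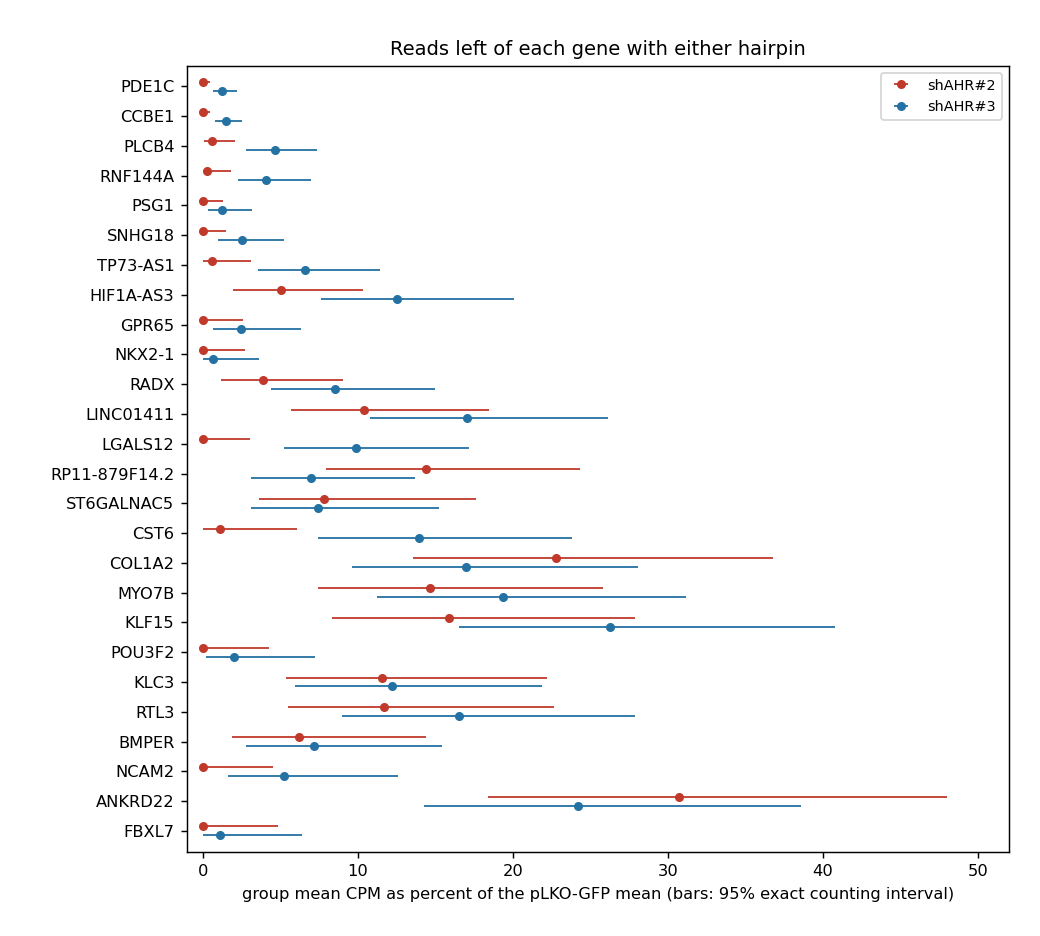
Group mean CPM of each gene as a percent of its pLKO-GFP mean (x axis) for shAHR#2 and shAHR#3, with 95% exact counting intervals. Most genes sit under 20% with either hairpin; ANKRD22 kept the most with shAHR#2 (30.7%) and KLF15 the most with shAHR#3 (26.3%).

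Among signalling enzymes and receptors, PDE1C was counted at 265, 293 and 340 reads in the control, at 0 in every shAHR#2 library and at 0, 6 and 6 with shAHR#3. Its mean went from 15.9 ± 1.41 CPM to at least 90.2-fold lower with shAHR#2 and to 0.200 ± 0.174 CPM with shAHR#3, which is 1.26% of the control (95% counting interval 0.652% to 2.22%). The 1 shAHR#3 library at 0 overlapped the shAHR#2 libraries, while the other 2 lay above them. PLCB4, a phospholipase C of the beta class that acts below G protein-coupled receptors, had 104, 142 and 140 reads in the control, 0, 2 and 0 with shAHR#2 and 7, 6 and 6 with shAHR#3. Every shAHR#3 library was above every shAHR#2 library, with 4.69% of the control left (2.78% to 7.39%) against 0.611% (0.069% to 2.07%). GPR65, a receptor that senses acidic pH, had 59, 56 and 41 control reads, none with shAHR#2 and 2, 2 and 0 with shAHR#3, at least 15.8-fold lower with shAHR#2.

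The secreted and matrix proteins began with CCBE1, counted at 265, 300 and 311 reads in the control, 0, 0 and 0 with shAHR#2 and 5, 3 and 6 with shAHR#3. The mean of 15.6 ± 0.443 CPM became at least 88.0-fold lower with shAHR#2 and was 1.51% of the control with shAHR#3 (0.825% to 2.56%). All shAHR#3 libraries held some reads and no shAHR#2 library did. CST6, cystatin E/M, an inhibitor of cysteine proteases, had 25, 36 and 42 reads, then 0, 1 and 0 with shAHR#2 and 3, 8 and 4 with shAHR#3. LGALS12, a galectin best known from fat cells, had 44, 40 and 50 reads, none with shAHR#2 and 4, 6 and 4 with shAHR#3. In both genes the shAHR#3 libraries stood above the shAHR#2 libraries, with 13.9% and 9.90% of the control left. PSG1, a pregnancy-specific glycoprotein normally made by the placenta, went from 92, 111 and 106 reads to 0 in all shAHR#2 libraries and to 1, 3 and 0 with shAHR#3.

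COL1A2, which encodes a chain of type I collagen, kept more of its reads, with 31, 31 and 39 in the control, 8, 8 and 5 with shAHR#2 and 4, 11 and 3 with shAHR#3. That is 22.8% (13.5% to 36.8%) and 17.0% (9.63% to 28.1%) of the control, and the hairpin groups overlapped. BMPER, a secreted regulator of bone morphogenetic proteins, had 24, 36 and 32 control reads and at most 4 in any hairpin library.

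Among regulators of transcription, NKX2-1, a homeobox factor of lung and thyroid, was at 39, 61 and 49 reads in the control and at 0 in all hairpin libraries but one, shAHR#3 replicate 2, which had 1 read. POU3F2, a factor of neural cells, had 25, 29 and 43 control reads and 0 in all hairpin libraries except 2 reads in shAHR#3 replicate 2. Both were thus at or near 0 with either hairpin, at least 14.9-fold and at least 9.70-fold lower with shAHR#2. KLF15, a Krüppel-like zinc finger factor, lay close to the limit instead, with 30, 28 and 39 control reads, 5, 7 and 2 with shAHR#2 and 6, 10 and 11 with shAHR#3.

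RNF144A, an E3 ubiquitin ligase, had 125, 97 and 119 reads in the control, 1, 0 and 0 with shAHR#2 and 6, 1 and 8 with shAHR#3, so 1 shAHR#3 library matched the highest shAHR#2 count. FBXL7, an F-box protein that selects substrates for a ubiquitin ligase, had 23, 35 and 27 control reads and a single read over all hairpin libraries. RADX, a single-stranded DNA binding protein of replication forks, kept 3.92% with shAHR#2 and 8.55% with shAHR#3 of a control mean of 2.57 ± 0.271 CPM. ST6GALNAC5, a sialyltransferase, kept 7.82% and 7.45% of 1.82 ± 0.344 CPM, and the 2 hairpin groups overlapped. Cell adhesion and motor proteins were among the weakest in the control. NCAM2, a neural cell adhesion molecule, had 25, 41 and 25 control reads, 0 with shAHR#2 and 2, 2 and 1 with shAHR#3. MYO7B, an unconventional myosin of the brush border, kept 14.6% and 19.4%, and KLC3, a kinesin light chain, 11.6% and 12.2%. RTL3, a gene derived from a retrotransposon, kept 11.7% and 16.6%, and ANKRD22, an ankyrin repeat protein, 30.7% and 24.2%.

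Non-coding transcripts made up 5 of the 26 genes. SNHG18, a host gene of a small nucleolar RNA, had 65, 108 and 93 control reads, 0 in each shAHR#2 library and 2, 4 and 1 with shAHR#3. TP73-AS1, annotated as a transcribed unitary pseudogene, had 67, 51 and 81 reads, then 0, 0 and 1 and then 4, 2 and 8. Both had all shAHR#3 libraries above all shAHR#2 libraries. HIF1A-AS3 kept 5.06% (1.94% to 10.3%) with shAHR#2 and 12.6% (7.64% to 20.1%) with shAHR#3 of a control mean of 2.80 ± 0.359 CPM, and LINC01411 kept 10.4% and 17.1% of 2.56 ± 0.561 CPM. RP11-879F14.2 went the other way between the hairpins, with 34, 38 and 50 reads in the control, 6, 5 and 5 with shAHR#2 and 2, 3 and 4 with shAHR#3, and was the only one of the 26 with every shAHR#2 library above every shAHR#3 library in CPM.

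In the control the 26 genes were weakly expressed. Their control means ran from rank 8088 (PDE1C) to rank 12094 (FBXL7) among the 12097 genes at 1.5 CPM or more, with a median of 2.27 CPM. Levels were also set per kilobase of annotated exon, merged over all transcripts of a gene. That length can exceed the transcript in use, so levels of different genes compare only roughly. By this measure CST6 stood highest at 3.07 CPM per kb, followed by SNHG18 at 2.24, CCBE1 at 2.20, RP11-879F14.2 at 1.52 and PDE1C at 1.13. COL1A2 was lowest at 0.166. The coefficient of variation of CPM over the 3 control libraries ran from 2.85% for CCBE1 to 29.2% for RTL3, with a median of 16.9%. The genes next to the limits differed little across them. Just above the control limit were FBXL7 (1.503 CPM), ANKRD22 (1.55), NCAM2 (1.61) and BMPER (1.63), and just below it KCNH1 (1.48), LINC01561 (1.47), ATP2B2 (1.41) and LINC00886 (1.41). By the higher of the 2 hairpin means, ANKRD22 (0.475 CPM), KLF15 (0.453), LINC01411 (0.438) and COL1A2 (0.409) were just inside and PELI2 (0.515), SPEF2 (0.521), IL32 (0.527) and HLA-DMB (0.539) just outside. The same limits with control and hairpins exchanged found 32 genes.

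Between the 2 hairpins, 22 of the 26 genes had the higher mean CPM with shAHR#3 and 4 with shAHR#2. Among 10751 other genes at or under 0.5 CPM with both hairpins and with at least 1 read, 51.3% had the higher mean with shAHR#3. These other genes were all under the control limit of 1.5 CPM, so they are not a like background. NKX2-1, POU3F2 and FBXL7 count among the 22 with only 1 or 2 reads, and nothing is read from the 22. Every shAHR#3 library was above every shAHR#2 library for 9 of the 26 genes, and the reverse held for RP11-879F14.2. The share of all genes separated in this way was not counted, so these numbers are not read as a trait of the set. The limit of 0.5 CPM used the values of both hairpins and the genes passed the filter on low counts through the control alone, so no difference between the hairpins was tested for single members. In the fit over all genes 8 of the 26 had an adjusted p under 0.05 for shAHR#3 against shAHR#2, which is 30.8% of the set beside 42.3% of all genes (21.9% higher with shAHR#3, 20.4% lower), and nothing is read from this count. AHR itself, which the limits did not use, was higher with shAHR#3 by 0.19 on the log2 scale (adjusted p = 0.00283 from edgeR).

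The 26 genes were spread over 14 chromosomes, with 3 each on chromosomes 5, 7 and 14. PDE1C (chromosome 7, 31751179 to 32428131, GENCODE on GRCh38) and BMPER (chromosome 7, 33904308 to 34156427) lay 1476 kb apart, and CCBE1 (chromosome 18, 59430939 to 59697662) and RP11-879F14.2 (chromosome 18, 61585746 to 61607006) 1888 kb apart. The protein-coding genes had a median span of 36.3 kb, beside 28.3 kb for the 3239 protein-coding genes in the same control range. A span of 100 kb or more was found for 9 of 21 (42.9%), beside 18.4%, and the longest was that of PDE1C at 677 kb. Their median exonic length was 4885 bases, beside 4798.

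Genes around the 26 moved in both directions. Within 500 kb, 182 other genes were tested, and with shAHR#2 53 were higher and 56 lower, 59.9% in all beside 65.8% of all genes. With shAHR#3 49 were higher and 53 lower, 56.0% beside 54.4%. For the mean of both hairpins 113 passed, 62.1% beside 64.3%. The median log2 fold change of these neighbours was -0.04 with each hairpin, beside medians over all genes of -0.003 and under 0.001 in size. Of 44 genes within 100 kb, 17 were higher and 16 lower with shAHR#2, against 10 and 14 with shAHR#3.

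**Figure D4:**
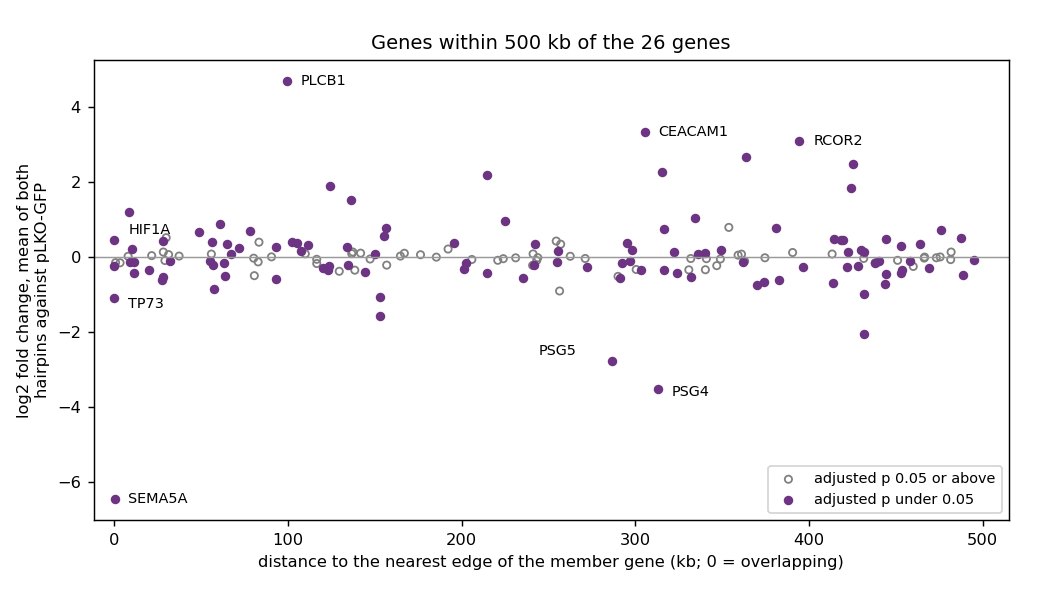
Log2 fold change of the mean of both hairpins against pLKO-GFP (y axis) for the 182 tested genes within 500 kb, by distance to the nearest edge of one of the 26 genes (x axis, kb). Filled points passed an adjusted p under 0.05; SEMA5A is the lowest point at -6.46 and PLCB1 the highest at 4.69.

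SEMA5A, a semaphorin that guides axons, had the largest fall of the neighbours for the mean of both hairpins. It starts on the strand opposite SNHG18, and 94 bases separate the annotated starts of the 2 genes. It was counted at 259, 302 and 339 reads in the control, 0, 0 and 2 with shAHR#2 and 13, 14 and 13 with shAHR#3. Its CPM was 387 times below the control with shAHR#2 (95% counting interval 113 to 3391) and 23.7 times with shAHR#3 (17.3 to 33.4), and the adjusted p of edgeR was 5.95e-24 and 2.36e-22. Like SNHG18, SEMA5A was higher with shAHR#3 than with shAHR#2 in every library. Its shAHR#3 mean of 0.674 CPM kept it out of the set. The RefSeq window of SNHG18 (chr5:9545950-9546249, plus strand) spans both starts. The bases between them are in capitals, have no AHR core and hold several GC boxes.
SNHG18 and SEMA5A: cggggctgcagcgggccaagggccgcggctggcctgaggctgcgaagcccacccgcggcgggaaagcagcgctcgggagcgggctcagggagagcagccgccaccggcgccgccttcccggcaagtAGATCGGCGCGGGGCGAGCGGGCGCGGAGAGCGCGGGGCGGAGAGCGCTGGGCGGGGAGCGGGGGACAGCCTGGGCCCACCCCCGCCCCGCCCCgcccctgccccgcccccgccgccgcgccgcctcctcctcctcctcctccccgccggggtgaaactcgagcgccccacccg

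Of the genes that overlap a member on the other strand, 3 were tested. TP73, the gene of the p53 relative p73, overlaps TP73-AS1 and had 80, 89 and 68 control reads, 33, 25 and 24 with shAHR#2 and 31, 45 and 57 with shAHR#3, log2 fold changes of -1.33 (SE 0.22, adjusted p = 1.39e-06) and -0.88 (SE 0.20, adjusted p = 0.000223). HIF1A, the oxygen-regulated transcription factor subunit, overlaps HIF1A-AS3 and rose from 692 ± 17.2 CPM to 931 ± 15.7 and 913 ± 1.88 CPM, by 0.49 (SE 0.03, adjusted p = 1.68e-19) and 0.43 (SE 0.02, adjusted p = 3.19e-17) on the log2 scale. ERCC2, a helicase of DNA repair, overlaps KLC3 and changed by -0.24 and -0.23 (adjusted p = 2.37e-05 and 6.04e-05). The overlapping partner thus fell beside TP73-AS1 and KLC3 and rose beside HIF1A-AS3. Whether the counting used strand is not given in the sources used here, so reads of such partners may be mixed.

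PLCB1, another phospholipase C of the beta class, lies 99465 bases from PLCB4 and went in the opposite direction. It had 0, 2 and 1 reads in the control, 12, 11 and 2 with shAHR#2 and 67, 94 and 111 with shAHR#3. The control total of 3 reads gave 9.34 times the control level with shAHR#2 (95% counting interval 2.79 to 47.3) and 88.9 times with shAHR#3 (29.1 to 419). Beside PSG1, the related PSG4 fell from 47, 28 and 36 reads to 0, 0 and 2 with shAHR#2 and to 10, 15 and 12 with shAHR#3. PSG5 had 18, 21 and 15 control reads, then 3, 0 and 0 and then 10, 6 and 1. Without the control libraries neither PSG4 nor PSG5 would have passed the filter on low counts, so these falls are given without a test. The PSG genes are similar in sequence and reads may have been split among them.

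CEACAM1, a cell adhesion molecule 305230 bases from PSG1, rose from 11, 12 and 12 reads to 101, 88 and 82 with shAHR#2 and to 147, 134 and 133 with shAHR#3, by 3.14 and 3.50 on the log2 scale (SE 0.21 and 0.20, adjusted p = 1.26e-15 and 2.03e-17). RCOR2, a corepressor 394456 bases from LGALS12, went from 5, 0 and 2 reads to 18, 20 and 25 and to 18, 19 and 19. Hairpin libraries alone brought RCOR2 past the filter on low counts, so its rise is given without a test. All hairpin libraries of CEACAM1 and RCOR2 lay above all control libraries, which their choice as large rises all but fixes. The share of all genes separated in this way was not counted.

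Relatives of the 26 genes, taken as genes with the same symbol stem where at most 60 genes share it, included more genes that were higher than genes that were lower. Of 120 tested, 63 were higher and 29 lower with shAHR#2, 76.7% in all beside 65.8%, with a median log2 fold change of 0.23. With shAHR#3 55 were higher and 27 lower, 68.3% beside 54.4%, with a median of 0.21. No scaling that was tried turned the sign of any relative that passed the test. RNF144A, GPR65 and ANKRD22 were left out because more genes than that share their stem. This way of matching symbols gave no relative of RADX, ST6GALNAC5, BMPER and CCBE1, and no relative of NCAM2 was tested.

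**Figure D5:**
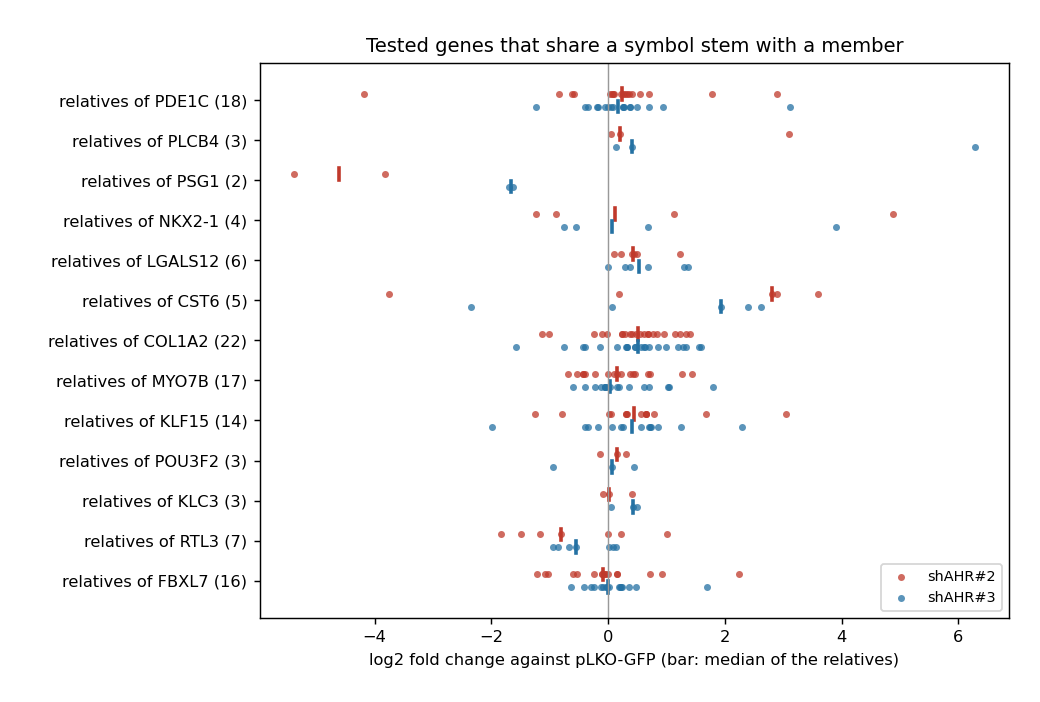
Log2 fold change against pLKO-GFP (x axis) of the tested relatives of each member gene (rows, number of relatives in brackets), with shAHR#2 and shAHR#3 as separate points and their medians as bars. The 2 PSG relatives lie left of 0, most collagens right of 0, and the cystatins on both sides.

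Among collagens, 14 of 22 were higher and 3 lower with shAHR#2, and 14 higher and 4 lower with shAHR#3. COL1A1, the partner chain of COL1A2 in type I collagen, rose from 126, 102 and 133 reads to 196, 136 and 171 and to 209, 202 and 262, by 0.67 (SE 0.13, adjusted p = 1.69e-05) and 0.85 (SE 0.12, adjusted p = 2.32e-07). The 2 chains thus moved in opposite directions with both hairpins. Among cystatins, 4 of 5 were higher with shAHR#2 and 3 with shAHR#3, and 1 was lower with each. CST1, a secreted inhibitor of cysteine proteases, rose from 10.1 ± 0.448 CPM to 117 ± 5.06 and 60.9 ± 0.408 (SD, n = 3; log2 fold changes 3.60 and 2.62, SE 0.06 for both, adjusted p = 1.53e-35 and 1.27e-29). CST2 and CST4, close paralogs of CST1 whose reads may be mixed with it, rose as well, to 7.11 and 6.66 times the control with shAHR#2. CST7, a cystatin of immune cells, fell from 74, 101 and 78 reads to 7, 4 and 5 and to 13, 16 and 22 (adjusted p = 9.96e-14 and 7.12e-11).

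Krüppel-like factors were higher in 10 of 14 with shAHR#2 and 9 with shAHR#3, and lower in 2 and 4. KLF4, which keeps epithelial and stem cell programmes, rose from 20.3 ± 1.55 CPM to 61.8 ± 4.50 and 47.0 ± 1.71, in contrast to the loss of KLF15 reads. Among 18 genes with the stem PDE 9 and 8 were higher and 4 and 4 lower. They include PDE4DIP and PDE4DIPP2, so not all of them are phosphodiesterases. PDE9A, which degrades cyclic GMP, fell from 58, 54 and 62 reads to 4, 3 and 1 and to 19, 26 and 31 (adjusted p = 3.11e-12 and 3.38e-05). PDE3A had 2, 1 and 1 control reads, 13, 7 and 8 with shAHR#2 and 13, 14 and 12 with shAHR#3. No test is given for PDE3A, since it passed the filter on low counts through hairpin libraries alone.

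Genes with the stem LGALS, which are galectins and the galectin-binding LGALS3BP, were higher in 5 of 6 and lower in none with each hairpin. Of the genes named after retrotransposons like RTL3, 4 of 7 were lower with each hairpin, among them RTL8A, RTL8B and RTL8C, near-identical neighbours whose reads cannot be separated with certainty. RTL8C went from 46.9 ± 1.83 CPM to 19.9 ± 1.71 and 28.8 ± 2.38. Among relatives of NKX2-1, 2 of 4 were higher with each hairpin and 2 and 1 lower. NKX1-2, also a homeobox factor, rose from 0, 1 and 0 reads to 11, 12 and 12 and to 12, 5 and 4. It passed the filter on low counts through hairpin libraries alone, so no test is given. Myosins were higher in 8 and 7 of 17 and lower in 5 and 2. Genes with the stem FBXL, among them the antisense transcript FBXL19-AS1, were higher in 4 and 3 of 16 and lower in 6 and 4. For relatives of PLCB4, POU3F2 and KLC3 3 genes each were tested, of which 2, 2 and 1 were higher with shAHR#2 and none lower. With shAHR#3 2, 0 and 2 of them were higher and 0, 1 and 0 lower.

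Gene lists of the pathways of CCBE1, PDE1C and COL1A2, and of AHR targets, axon guidance and HLA class II genes, held 157 tested genes. Members were left out, and the AHR target, axon guidance and HLA class II lists hold no member. With shAHR#2 76 were higher and 56 lower, while shAHR#3 gave 79 and 49, so 84.1% and 81.5% passed, beside 65.8% and 54.4% of all genes. The lists were chosen with earlier results of these data known, so nothing is read from these shares. Of 12 genes of VEGF-C processing and its receptors, the pathway of CCBE1, 6 were higher and 4 lower with shAHR#2, against 5 and 5 with shAHR#3. VEGFC itself averaged 47.6 ± 2.17 CPM in control cells, 49.0 ± 3.07 CPM in shAHR#2 cells and 51.3 ± 2.77 CPM in shAHR#3 cells, log2 differences of 0.11 (adjusted p = 0.0911) and 0.14 (adjusted p = 0.0287). The second of these no longer passed with DESeq2 (adjusted p = 0.066) or without pLKO-GFP replicate 3 or shAHR#3 replicate 1. ADAMTS3, the protease that CCBE1 assists, was at 67, 78 and 69 reads in the control, 174, 168 and 167 with shAHR#2 and 73, 85 and 113 with shAHR#3, a log2 fold change of 1.45 (SE 0.14, adjusted p = 1.15e-11) with shAHR#2 and 0.29 (SE 0.15, adjusted p = 0.112) with shAHR#3. Tested directly, the hairpins differed (adjusted p = 2.78e-09).

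KDR, a receptor for VEGF-A and VEGF-C, had 75, 86 and 81 control reads, 12, 9 and 10 with shAHR#2 and 2, 6 and 12 with shAHR#3 (adjusted p = 5.43e-11 and 6.52e-13). PGF, placental growth factor, rose from 109, 85 and 113 reads to 1013, 830 and 949 in the shAHR#2 libraries and 1110, 1201 and 1305 in the shAHR#3 libraries, to 9.94 and 11.1 times the control (adjusted p = 8.99e-29 and 4.25e-29).

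Genes of cyclic nucleotide metabolism, the pathway of PDE1C, were higher in 11 and lower in 8 of 27 with shAHR#2, against 12 and 9 with shAHR#3. Of 14 genes known as AHR targets, 4 were higher and 8 lower with shAHR#2, against 5 and 5 with shAHR#3. ALDH3A1 rose from 3.57 CPM to 27.5 with shAHR#2 and 18.7 with shAHR#3. TIPARP changed by 0.04 (edgeR adjusted p = 0.344) with shAHR#2 and by -0.18 (adjusted p = 0.000245) with shAHR#3 on the log2 scale. CYP1A1 fell from 71, 97 and 90 reads to 10, 11 and 19 and to 41, 44 and 28. CYP1B1 fell from 172 ± 4.51 CPM to 26.3 ± 1.09 with shAHR#2 and only to 125 ± 2.37 with shAHR#3, log2 fold changes of -2.65 (SE 0.04, adjusted p = 3.52e-35) and -0.44 (SE 0.03, adjusted p = 5.78e-14), and the difference between the hairpins passed the test (adjusted p = 3.96e-31). Both encode enzymes of xenobiotic metabolism, and CYP1A1 also differed between the hairpins (adjusted p = 0.000725), so both were lower with shAHR#2.

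Matrix genes were higher in 30 and lower in 10 of 44 with shAHR#2, against 28 and 12 with shAHR#3. LAMA4, a laminin chain of basement membranes, rose from 6.08 ± 0.296 CPM to 138 ± 1.19 and 107 ± 3.65 (SD, n = 3; log2 fold changes 4.57 and 4.16, SE 0.06 for both, adjusted p = 5.07e-38 and 4.02e-36). Axon guidance and cell contact genes were higher in 24 and lower in 18 of 48 with shAHR#2, against 29 and 10 with shAHR#3. TENM2, a teneurin of synaptic contacts, had 408, 502 and 436 control reads, 2, 1 and 0 with shAHR#2 and 22, 31 and 21 with shAHR#3, 429 times below the control with shAHR#2 (140 to 1985) and 19.1 times with shAHR#3 (15.2 to 24.6). HLA class II genes, which present peptides to helper T cells, were higher in 1 and lower in 8 of 12 with shAHR#2, against 0 and 8 with shAHR#3. HLA-DRB5 had 14, 11 and 14 control reads, 0, 0 and 1 with shAHR#2 and 1, 0 and 2 with shAHR#3. It passed the filter on low counts through the control alone, so its fall is given without a test. It has near-identical paralogs with which reads may be shared.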

How the data were processed

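RNA was sequenced from 9 libraries of MDA-MB-231 cells, made with a stranded mRNA kit. The deposited values are raw read counts for each gene, as whole numbers. The submitters' processing notes name FastQC, STAR, featureCounts, Subread and GRCh38.p13, and the annotation release and strand setting are not given in the sources used here. The member genes and all lists were chosen with earlier results of these data known.

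CPM used the column totals. Genes kept by filterByExpr (minimum count 10, minimum total 15) were fitted once over all libraries by edgeR 4.0.16 (TMM, quasi-likelihood, a mean per group, limma 3.58.1, R 4.3.3), with Benjamini-Hochberg adjustment over 14274 genes and a threshold of 0.05. SE was the log2 fold change divided by the square root of F. Replicates differed by more than counting noise (chi-square over its degrees of freedom, 1.74 to 3.97). DESeq2 1.42.0 was an alternative. The fit was tested on simulated data with 200 genes changed between the hairpins, of which 182 were recovered, with 15 false calls. Of 100 genes changed 2-fold, 84 were recovered. The simulation changed no gene between a hairpin and the control. Intervals were exact binomial at 95%, and the floor was 3 reads per library. Positions came from GENCODE release 44, promoters from RefSeq.

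The text names PDE1C and CCBE1, the members with the highest control CPM, those called between the hairpins, the 4 genes on each side of each limit, pairs of members near each other, AHR, and the 3 largest rises and falls among neighbours, relatives and lists. HIF1A, TP73, ERCC2, COL1A1, CST2, CST4, KLF4, PDE9A, RTL8A, RTL8B, RTL8C, VEGFC, ADAMTS3, KDR, CYP1A1, CYP1B1, ALDH3A1, TIPARP and the remaining members were named after their values were seen.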

Additional observations from a re-analysis of the deposited data

Results flagged for a closer look

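The effect of the 2 hairpins differed in a direct test of shAHR#3 against shAHR#2 (edgeR, adjusted over all genes, of which 42.3% passed). Given here are AHR and 3 other genes that are not among the 26, and they are not the only ones of the report that passed. The adjusted p was 0.00283 for AHR, 0.000725 for CYP1A1, 3.96e-31 for CYP1B1 and 2.78e-09 for ADAMTS3. AHR, CYP1A1 and CYP1B1 were higher with shAHR#3, and ADAMTS3 was higher with shAHR#2. Other genes named above passed the same test, among them PLCB1 (adjusted p = 7.80e-11), SEMA5A (8.49e-06), TENM2 (1.30e-08) and CST1 (4.70e-21). Of these, CST1 was higher with shAHR#2 and the others with shAHR#3.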

How the results depend on the processing

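The number of genes chosen depended on the limits. A control limit of 1 CPM gave 55 and of 3 CPM 7, and a hairpin limit of 0.25 CPM gave 15 and of 1 CPM 90. CPM on TMM or DESeq2 library sizes gave 25, without FBXL7, and leaving out a library gave 25 to 29, of which 23 to 26 were among the 26. The count of members under an adjusted p of 0.05 between the hairpins, 8 of 26 (30.8%, beside 42.3% of all genes), from which nothing is read, was 5 to 8 with a library left out, the 5 without shAHR#2 replicate 1. In a fit of the hairpin groups alone no member passed the filter on low counts, so that alternative gave no value. With a library left out, neighbours passed in 100 to 111 and 88 to 102 cases, relatives in 85 to 93 and 77 to 84, list genes in 128 to 133 and 121 to 129, and AHR ran from -1.52 to -1.48 and -1.38 to -1.26, with shAHR#2 and shAHR#3. VEGFC passed with shAHR#2 without shAHR#2 replicate 1 (adjusted p = 0.0245), and ADAMTS3 with shAHR#3 without shAHR#3 replicate 1 (0.0322).

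Same-numbered replicates deviated from their group means with correlations of 0.003 to 0.058, none over 0.1. Replicates of different number had correlations of -0.068 to 0.023. The values are small but higher for the same number on the whole, and whether these replicates share more than a number is not known. With the replicate number as a block the counts of neighbours were 107 and 104, of relatives 91 and 82 and of list genes 132 and 128, and AHR was at -1.50 and -1.31. Depth limits the shares left to counting intervals such as 0.069% to 2.07% for PLCB4 with shAHR#2.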
